A study of Mus musculus with 6 samples.

Results

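Bone marrow of aged and young wild-type mice was compared at steady state, that is without any treatment, by single-cell RNA sequencing. The cells were those that the deposited annotation assigns to the untreated marrow libraries, with at least 500 UMIs (unique molecular identifiers, 1 for each captured transcript) and at most 10% of UMIs from mitochondrial genes. These limits left out 0 cells of either library, so 8213 young and 6389 aged cells were used, 14602 of the 28055 barcodes deposited. The study asks how age alters the formation of neutrophils before and after stroke, and it has 6 libraries, 1 for each group. Per the labels, both marrow libraries came from wild-type mice, sorting had raised the shares of Gr1+ cells (granulocytes and monocytes) and of c-kit+ cells (progenitors), and sequencing was from a droplet 3′ kit (10x Genomics Chromium). The labels give neither the ages of the mice nor the number pooled, so each age stands as 1 library. The young and aged marrow libraries from mice with an experimental stroke (the middle cerebral artery was occluded 24 h earlier) are used below only to set values beside those at steady state. From these the same limits left out 593 of 2858 young and 362 of 3017 aged barcodes. Their highest mitochondrial shares were 9.90% and 9.95%, against 4.91% and 4.99% in the young and aged steady-state libraries. The part of this loss in the values after stroke was not tested.

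Blood cells of the adult arise in the marrow from hematopoietic stem cells, through progenitors that commit to the lymphoid, megakaryocyte and erythroid, or myeloid branches. Neutrophils pass through a stage that fills azurophil granules with Mpo, Elane and Prtn3, then a stage that fills specific granules with Ltf, Camp and Ngp, and lastly a mature stage with receptors such as Cxcr2. With age, marrow is known for more phenotypic stem cells, for a shift away from lymphoid output and towards platelet and myeloid output, and for raised transcripts of Selp, Vwf and Nupr1 in the stem cells.

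Each value is a level in counts per 1000000 UMIs (CPM) of the summed cells, and each difference is the log2 ratio of the aged over the young level. With 1 library a side no test of age is possible and no p-value is given. The 95% interval beside a ratio is an exact binomial interval for the 2 counts; it covers counting error only, not the spread between mice. A gene is called higher or lower when it differs at least 1.5-fold, its interval excludes no change, and its mean level is at least 20 CPM. The libraries held 72743805 UMIs (young) and 68455949 UMIs (aged), with medians of 7743 and 9150 UMIs per cell and median mitochondrial shares of 1.29% and 1.04%. They shared 14 cell barcodes. Of the 17 cell classes with marker lists, 11 held at least 50 cells in both libraries and are compared here. No cell passed the gate for stroma and endothelium, and 6 young and 3 aged cells passed that for macrophages.

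The aged library held 2.43 times the share of stem-like cells and lower shares of lymphoid-primed progenitors and plasmacytoid dendritic cells. A cell was placed in a class when at least 3 of that class's markers were detected and its mean marker score was at least 0.3. Stem-like cells (Hlf, Mecom, Procr and other markers) numbered 205 in the young library, 2.5% of its cells (exact 95% interval 2.17% to 2.86%). In the aged library they numbered 388, or 6.07% (5.50% to 6.69%). The ratio of the shares was 2.43 (2.05 to 2.90), and 2.71 when the gates were set on cells thinned to 2000 UMIs, which leaves 86 and 181 cells. Of the gated cells, 59 young and 87 aged scored between 0.3 and 0.35, near the limit, and the median scores were 0.395 and 0.438. Lymphoid-primed progenitors, marked by Dntt, Flt3 and Il7r, were 8.26% of cells in the young library and 5.27% in the aged one, a ratio of 0.64 (0.56 to 0.73). Plasmacytoid dendritic cells, the interferon producers marked by Siglech, were 5.07% and 3.47%, a ratio of 0.69 (0.58 to 0.81). Conventional dendritic cells, which present antigen, went from 1.41% to 2.33% (ratio 1.65, 1.29 to 2.12), and megakaryocytes, the platelet makers, from 0.633% to 1.22% (ratio 1.93, 1.34 to 2.79).

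The large granulocyte and monocyte gates held nearly the same shares in both libraries. Azurophil-stage precursors were 26.5% of young and 24.9% of aged cells (ratio 0.94, 0.88 to 1.0), specific-granule-stage neutrophils 20.9% and 19.8% (0.95, 0.88 to 1.02), and monocytes 16.7% and 16.4% (0.98, 0.90 to 1.06). Erythroid cells were 5.08% and 5.71% (1.13, 0.98 to 1.30), and basophil and mast cells 1.14% and 1.58% (1.38, 1.03 to 1.85). Mature neutrophils were few, 2.14% and 2.96%; their ratio of 1.38 became 1.06 without cells that also pass the gate of an unrelated class. Such doublet-like cells made up 7.29% (young) and 7.86% (aged), and they were kept in the main values. The enrichment for Gr1+ and c-kit+ cells can set any of these shares. Among the 10 genes that most set each gate apart, none was a marker of another class, and the stem-like gate was led by Gm2830, Hlf, Mecom and Procr. Each cell went to the class in which it scored highest, so the gating itself favours this result, which is no check of purity. After stroke the same gates gave 26 young and 90 aged stem-like cells, a ratio of shares of 2.95 (1.89 to 4.76), and ratios of 0.43 for lymphoid-primed progenitors and 0.42 for plasmacytoid dendritic cells. The large granulocyte and monocyte gates, close at steady state, were not close after stroke. The ratio was 0.60 (0.52 to 0.70) for monocytes, 1.33 (1.17 to 1.52) for specific-granule-stage neutrophils and 1.22 (1.05 to 1.42) for azurophil-stage precursors. For erythroid cells the ratio after stroke was 0.99 (0.73 to 1.35), and for mature neutrophils 0.78 (0.63 to 0.96).

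**Figure D1:**
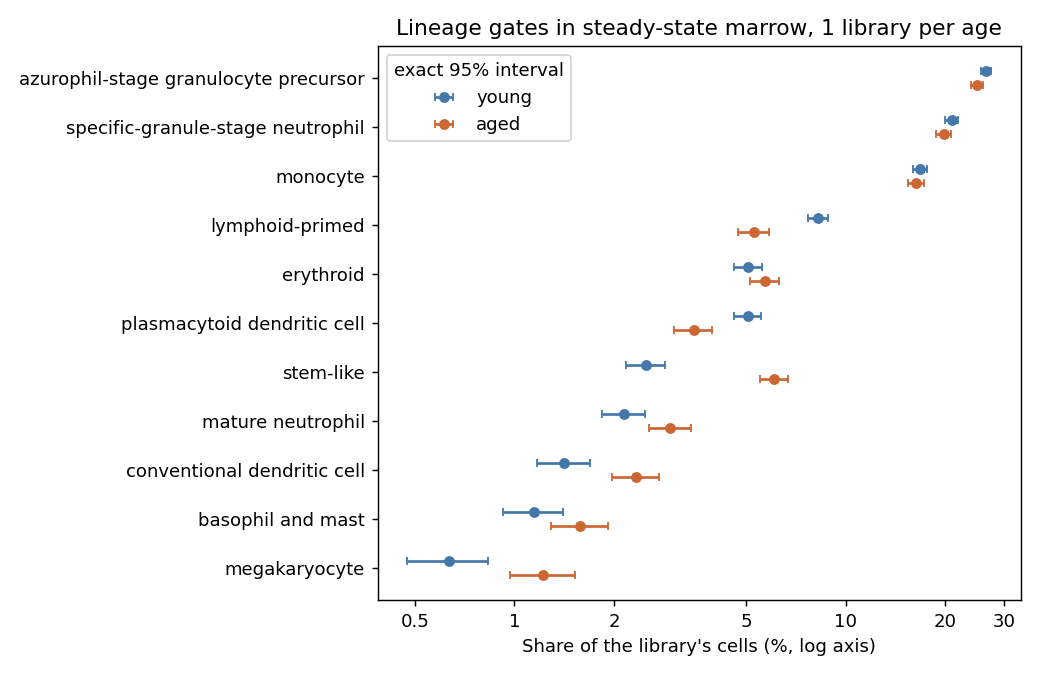
Share of each library's cells (%, log axis) in the 11 lineage gates that hold at least 50 cells in both libraries, with exact 95% intervals. The stem-like share is higher in the aged library (6.07% against 2.5%) and the lymphoid-primed share lower (5.27% against 8.26%), while the 3 largest gates nearly coincide.

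Summed over all cells, few genes differed between the libraries. Of 6119 genes above the level floor, 33 were called (0.539%), 19 higher (0.311%) and 14 lower (0.229%) in the aged library, and the middle 90% of ratios lay between -0.16 and 0.18 around a median of 0.02. In such sums, more cells of a type and more RNA per cell cannot be told apart. Rsrp1, which encodes an arginine- and serine-rich protein, went from 215 to 477 CPM, a log2 ratio of 1.15 (1.12 to 1.18). Pf4, the platelet factor, went from 134 to 218 CPM (0.71), and Ifitm1, an interferon-induced membrane protein, from 130 to 213 CPM (0.72). Cd74, the invariant chain of MHC class II, went from 228 to 372 CPM (0.70). Among the genes lower in the aged library, the mitochondrial ribosomal RNA mt-Rnr2 went from 2838 to 1707 CPM (-0.73) and mt-Rnr1 from 1198 to 733 CPM (-0.71). Ifi27l2a, an interferon-stimulated gene, went from 107 to 63.6 CPM (-0.74), and Tfrc, the transferrin receptor, from 85.3 to 55.0 CPM (-0.63).

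Immunoglobulin transcripts were the most uneven of the called genes. Ighg2b had 29 UMIs in the young and 4128 in the aged library, and 96.9% of the aged UMIs came from 10 cells. Igkc, the kappa light chain, went from 1033 to 2045 CPM with 68.2% and 73.6% of its UMIs in 10 cells of each library. For Iglc3, a lambda chain, the log2 ratio was -2.77, and -0.02 without the 10 cells richest in it. The plasma gate held 17 cells in each library.

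Part of the all-cell calls went with the make-up of the libraries. When each lineage was given the mean of its 2 shares, 9 of the 19 higher and 10 of the 14 lower genes were still called. The ratio of Pf4 became 0.05 and that of Siglech, a marker of plasmacytoid dendritic cells, -0.35 in place of -0.75. Il7r, the interleukin-7 receptor and a marker of the lymphoid-primed gate, went from -0.60 to -0.28. The ratios of Rsrp1, mt-Rnr2, mt-Rnr1, Jun and Ifi27l2a stayed past the fold under the mean make-up.

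**Figure D2:**
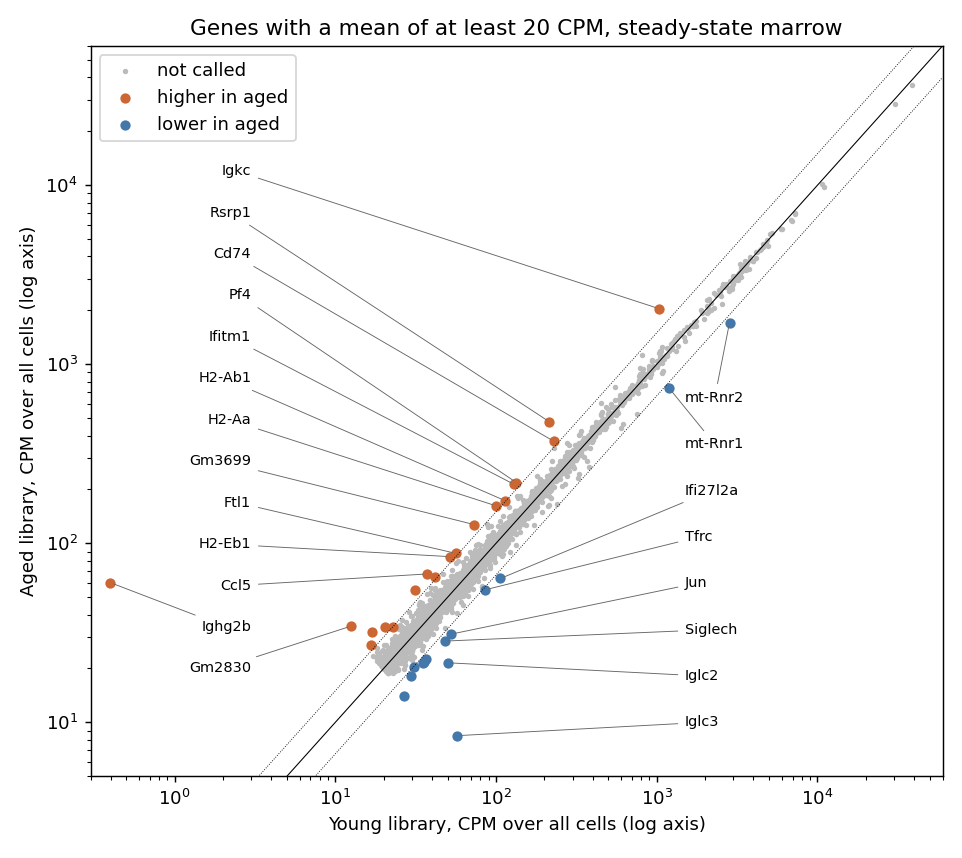
Level of each of 6119 genes in the young (x axis) and aged (y axis) library, in CPM over all cells on log axes; the solid line marks equal levels and the dotted lines 1.5-fold. Most genes lie on the diagonal, the 19 genes called higher lie above it and the 14 called lower below it, with Ighg2b far to the left.

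The MHC class II genes, which load peptides for presentation to helper T cells, were higher together in the summed cells. Of 7 members of that list above the floor, 4 were called higher (median log2 ratio 0.61, against 0.02 over all genes): Cd74, H2-Aa (100 to 162 CPM), H2-Ab1 (113 to 173 CPM) and H2-Eb1 (51.6 to 84.3 CPM). These 4 are also markers of the conventional dendritic gate, and under the mean make-up the list's median was 0.21. Within conventional dendritic cells, 5 further members were above the floor and none was called (median -0.05). Of H2-Aa, H2-Ab1 and H2-Eb1, which moved together, the promoters of H2-Aa and H2-Eb1 are shown. The promoter set used held none for H2-Ab1. Each is the 200 bases before the annotated start, from RefSeq on GRCm38.p6, read 5′ to 3′ on the gene's strand. Capitals mark the letters ATTGG on either strand, the inverted CCAAT box that forms the Y box of class II promoters.
H2-Aa (chr17:34287824-34288023, minus strand): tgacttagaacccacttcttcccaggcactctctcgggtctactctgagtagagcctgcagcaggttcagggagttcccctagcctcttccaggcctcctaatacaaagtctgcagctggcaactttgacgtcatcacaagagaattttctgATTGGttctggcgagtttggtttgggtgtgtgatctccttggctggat
H2-Eb1 (chr17:34305667-34305866, plus strand): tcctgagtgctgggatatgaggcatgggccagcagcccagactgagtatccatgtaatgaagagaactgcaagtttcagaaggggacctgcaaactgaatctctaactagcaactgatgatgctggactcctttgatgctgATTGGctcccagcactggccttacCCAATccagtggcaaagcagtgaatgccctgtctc
The letters occurred once in the H2-Aa window and at 2 places in that of H2-Eb1. They occurred in 29.3% of the 32851 promoter windows of the same length, so their presence alone sets these promoters little apart.

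Within the stem-like gate, the transcripts that earlier work reports as raised in aged stem cells were higher in the aged library. All 20 genes of that list had a higher level in aged cells. Of these, 15 had a mean above the floor and all 15 were called higher, against 304 of 7002 genes (4.34%) called higher in this gate. The 15 reached the floor largely through the aged library, where all 15 exceeded 20 CPM against 6 in the young library, so their count is a description and their median of 3.20 holds for the genes that reached the floor. The list was assembled with published aging signatures and earlier results of these data known.

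Nupr1, a stress-induced chromatin protein on chromosome 7 (126623249 to 126630861), had 26 UMIs in young and 664 in aged stem-like cells, or 25.4 and 284 CPM, a log2 ratio of 3.48 (2.92 to 4.11). Selp, the adhesion molecule P-selectin on chromosome 1 (164115264 to 164150026), had 17 and 353 UMIs (16.6 and 151 CPM; 3.18, 2.48 to 3.98). Aldh1a1, which oxidizes retinal, had 52 and 421 UMIs (1.82, 1.40 to 2.27). Vwf, the von Willebrand factor that tethers platelets, had 5 and 210 UMIs, and Clca3a1, a secreted regulator of chloride channels, 4 and 194. The 17 young UMIs of Selp came from 4.39% of the 205 young cells, so the 10 richest young cells hold all of them by definition. Of the aged UMIs, 15.9% came from the 10 richest cells.

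The share of stem-like cells with a transcript differed as the levels did. With every cell thinned to 2000 UMIs, Selp was detected in 2.93% of 205 young and 27.8% of 388 aged stem-like cells (4.39% and 49.7% unthinned, at median depths of 4294 and 5315 UMIs). Nupr1 was detected in 4.88% and 36.1% (8.29% and 56.2% unthinned) and Aldh1a1 in 9.27% and 28.6% (16.6% and 60.8% unthinned). In azurophil-stage precursors, which should lack these transcripts and have median depths of 12092 and 15837 UMIs, the thinned shares of these 3 genes lay between 0.23% and 0.692%.

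**Figure D3:**
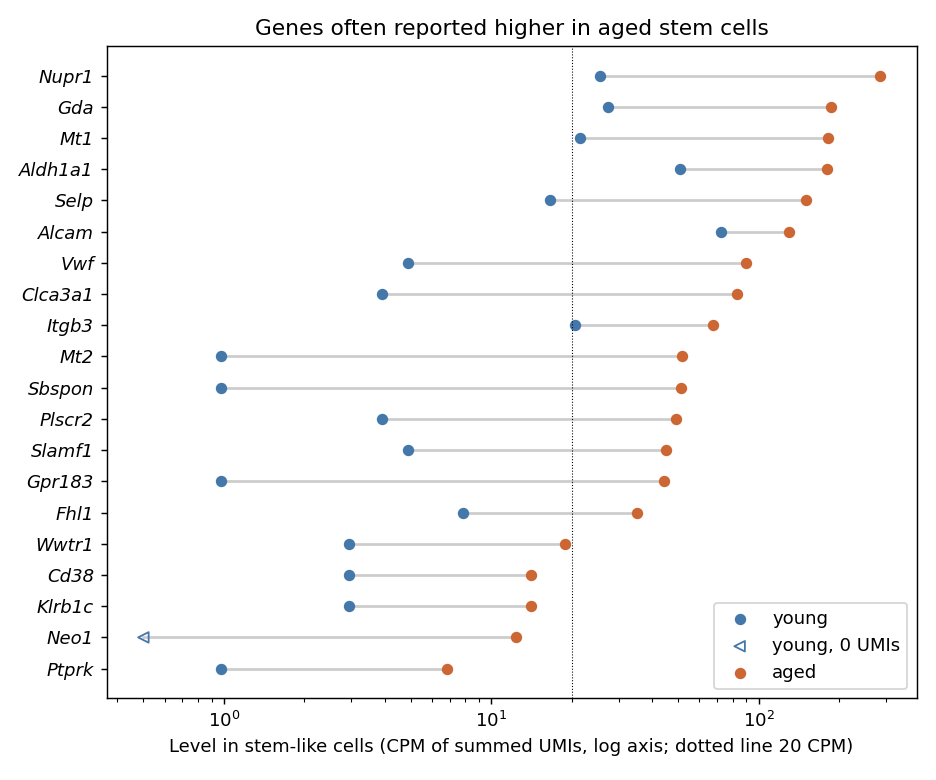
Level (CPM of summed UMIs, log axis) of 20 genes often reported higher in aged stem cells, in stem-like cells of the young and aged library; the dotted line is the floor of 20 CPM and the open triangle marks Neo1, which had 0 young UMIs. Every aged point lies to the right of its young point, and 6 young against 15 aged points lie past the floor.

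The same direction was seen with a narrower gate and in the libraries made after stroke. A stricter score of at least 0.5, chosen after seeing the data, leaves 41 young and 130 aged cells of the same gate, in which Selp had 10 and 146 UMIs (1.81, 0.89 to 2.90) and Nupr1 13 and 329 (2.60, 1.81 to 3.53). After stroke, with 26 young and 90 aged stem-like cells, 18 of the 20 had the higher level in aged cells. Selp then had 3 and 134 UMIs, Nupr1 4 and 323, and Mt1 6 and 113. Megakaryocytes of the aged steady-state library showed 6 of the 8 members above the floor as higher (percent of all genes called higher there 2.81%, median of the 8 members 1.17), among them Nupr1 with 5 and 47 UMIs and Aldh1a1 with 26 and 143. Those gates held 52 and 78 cells. The floor is set on the mean of both libraries, so here too members can reach it through the aged library. Their count is a description.

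Metallothioneins, small proteins that bind zinc and copper, were part of this group. In stem-like cells Mt1 went from 22 to 427 UMIs (21.5 to 183 CPM; 3.08, 2.47 to 3.77) and Mt2 from 1 to 121 UMIs (log2 ratio 5.72, 3.22 to 11.04). Over all cells neither was called (log2 ratios 0.19 and 0.09), and Mt1 was detected after thinning in 32.4% of young and 36.8% of aged azurophil-stage precursors. Their promoters are shown as those of a pair of neighbouring genes that moved together, each as the 200 bases before the start annotated by RefSeq on GRCm38.p6. Capitals mark TGCACNC or TGCGCNC on either strand, the core of the metal response element.
Mt1 (chr8:94178889-94179088, plus strand): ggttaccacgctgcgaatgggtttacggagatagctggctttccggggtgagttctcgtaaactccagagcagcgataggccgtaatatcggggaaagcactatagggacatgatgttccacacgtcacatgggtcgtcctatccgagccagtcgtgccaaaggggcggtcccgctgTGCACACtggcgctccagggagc
Mt2 (chr8:94172418-94172617, plus strand): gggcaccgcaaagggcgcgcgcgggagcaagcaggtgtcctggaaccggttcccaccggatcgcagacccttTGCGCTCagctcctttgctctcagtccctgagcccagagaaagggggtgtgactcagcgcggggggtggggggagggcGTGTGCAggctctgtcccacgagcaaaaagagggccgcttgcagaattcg
The core occurred once in the Mt1 window and at 2 places in the Mt2 window, and in 18.2% of all windows of that length.

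Over all genes of the stem-like gate, 304 of 7002 were called higher and 321 lower (8.93% called); without the 10 cells richest in each gene, 303 of the higher and 130 of the lower calls held. Leaving out 10 cells takes a larger share of the library with fewer cells in a gate, here the young one. Sult1a1, a sulfotransferase, had 15 and 354 UMIs (3.37) and Clec1a, a C-type lectin, 19 and 329 (2.92). The RNA of Meg3, an imprinted noncoding gene, had 8 and 152 UMIs (3.05). Apoe went from 275 to 757 CPM (1.46) and S100a6 from 145 to 349 CPM (1.27). Of the stem cell identity list, 3 of 10 members that are no gate marker were higher, among them Fgd5 and the cell cycle inhibitor Cdkn1c (23.5 to 57.7 CPM), and 2 were lower, Cd34 (444 to 210 CPM) and Flt3.

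The genes lower in aged stem-like cells included marks of later progenitors. Flt3, the receptor that opens the lymphoid path, went from 156 to 50.4 CPM (-1.62, -1.98 to -1.27), and Satb1, a chromatin organizer of lymphoid progenitors, from 77.3 to 24.8 CPM (-1.64). Both are markers of the lymphoid-primed gate. Its marker sum in stem-like cells, which includes both genes, was 351 CPM in the young and 147 CPM in the aged library. The part of lymphoid-primed cells in the result was not tested. Myc, a driver of growth, went from 199 to 88.5 CPM (-1.17), and Jun from 114 to 56.9 CPM (-1.01). Flt3 and Satb1 were also lower at the stricter score (18 and 6 UMIs, 9 and 9 UMIs) and after stroke (59 and 55 UMIs, 17 and 8 UMIs, log2 ratios -1.79 and -2.78). Myc was lower at the stricter score (-1.64) but was not called after stroke (-0.55, -1.10 to 0.02).

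The direction of the mitotic transcripts in stem-like cells depended on how the gates were set. Of 21 G2 and M phase genes above the floor, 16 were called lower (4.58% of all genes were), with a median of -0.80 and a summed level of 2023 CPM in young and 1251 CPM in aged cells. Only 4 of these 16 (Ccnb2, Kif23, Nusap1 and Tpx2) were still called without the 10 cells richest in each gene. With gates set on thinned cells the direction turned: the median over the 15 genes above the floor was 0.41, and the sums were 917 and 1101 CPM. After stroke the sums were 742 and 309 CPM.

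In lymphoid-primed progenitors 84 of 6544 genes were called (1.28%), 30 higher (0.458%) and 54 lower (0.825%) in the aged library. Cdkn1a, the inhibitor p21, went from 62.3 to 98.3 CPM (0.66, 0.41 to 0.90) and Cdkn2c, another cyclin kinase inhibitor, from 35.0 to 53.3 CPM (0.61). Both were also called higher after stroke, at 0.90 and 0.71. The chemokine gene Ccl3 had 162 UMIs in young and 28 in aged cells (-1.91, -2.54 to -1.32), and its neighbour Ccl4 had 165 and 40 (-1.42). After stroke Ccl3 was again lower (-1.52) while the ratio of Ccl4 was -0.07.

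Specific granule genes were also lower in this gate. Of 9 specific granule genes above the floor, 6 were called lower (median -0.70), among them Mmp8 (428 and 102 UMIs) and Ltf (819 and 247 UMIs). The marker sum of specific-granule-stage neutrophils in the gate, which shares genes such as Ltf with that list, was 1393 CPM in the young and 757 CPM in the aged library. Without doublet-like cells, which were 43 young and 11 aged cells of the gate, 0 of 8 members were called and the median was -0.11. Those cells are picked in part by the same markers, so the source of the transcripts was not tested.

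In plasmacytoid dendritic cells 205 of 6464 genes were called (3.17%), 80 higher (1.24%) and 125 lower (1.93%). Without the 10 richest cells, 31 of the higher and 120 of the lower calls held. The gate held 2374160 young and 1588595 aged UMIs, against 27612142 and 25872322 for azurophil-stage precursors, so the percents do not rank the gates. Interferon-pathway genes were among the lower: Irf7, the master factor of type I interferon genes, went from 68 to 26 UMIs (-0.81), Ifi27l2a from 411 to 269 CPM (-0.61) and Ifi35 from 57.7 to 38.4 CPM (-0.59). Of the 11 interferon-stimulated genes above the floor, 4 were lower, 0 were higher, and the list's median was -0.37. H2-Q7, a class I gene, went from 134 to 62.9 CPM (-1.09) and the transcription factor Ets1 had 111 and 27 UMIs (-1.46). Cdkn1a was higher here too, with 64 and 102 UMIs (1.25, 0.79 to 1.73). Retnlg, a transcript of mature neutrophils, went from 1141 to 560 CPM, with 48.3% of its young and 72.8% of its aged UMIs in 10 cells. The mature neutrophil marker sum, which includes Retnlg, went from 1606 to 932 CPM. The part of neutrophil transcripts in the other values was not tested.

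The 2 earlier neutrophil stages held few called genes. In azurophil-stage precursors, the largest gate, 18 of 5851 genes were called (0.308%), 7 higher (0.12%) and 11 lower (0.188%). They included Rsrp1 (223 to 481 CPM), Gm3699, Gm10736 and Ppia among the higher, and mt-Rnr2, mt-Rnr1 (1025 to 657 CPM), mt-Nd5 (475 to 314 CPM) and the nuclear RNA Neat1 (95.5 to 63.0 CPM) among the lower. Azurophil granule genes outside the gate's markers had a median of -0.00, and none of 28 G2 and M phase genes was called (median 0.02). In specific-granule-stage neutrophils 19 of 4491 genes were called (0.423%), 14 higher (0.312%) and 5 lower (0.111%). Mrgpra2b, a receptor of the Mas-related family, went from 68.9 to 104 CPM (0.60, 0.47 to 0.72), and after stroke from 74.3 to 141 CPM (0.93). Its 3′ sequence is shared to 88.9% with Mrgpra2a and other copies, so which copy was counted is uncertain. H2-Aa, H2-Ab1 and H2-Eb1 were also called higher in that gate (0.66, 0.67 and 0.72), with 43.7% to 51.1% of their UMIs in 10 cells; the ratios after stroke were 0.08, 0.11 and -0.10. The conventional dendritic marker sum in this gate was 228 CPM in the young and 347 CPM in the aged library. That sum includes H2-Aa, H2-Ab1 and H2-Eb1, and the same markers help set which cells are doublet-like. Without doublet-like cells none of these 3 genes was above the floor, and 1 of the list's members was, against 6 with them.

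Mature neutrophils showed 294 of 6027 genes called (4.88%), 149 higher (2.47%) and 145 lower (2.41%), in only 176 young and 189 aged cells, of which 67 and 100 were doublet-like. Of 29 G2 and M phase genes, 20 were above the floor (sums 1412 and 1509 CPM) and 3 were higher, against 1 above it after stroke. Without doublet-like cells 7 of 19 were higher and 0 lower (median 0.61). The gate may thus hold unlike cells in the 2 pairs of libraries, and the part of dividing cells in its ratios was not tested. Wfdc17, a secreted protein of activated myeloid cells, went from 119 to 406 CPM (1.77, 1.49 to 2.07). It was as high without doublet-like cells (56 and 284 UMIs, 2.27) but lower in aged cells after stroke (3338 to 1696 CPM, -0.98). S100a4 went from 47.3 to 90.1 CPM (0.93) and Id2, an inhibitor of differentiation, from 209 to 110 CPM (-0.93; -1.12 after stroke). Of 27 interferon-stimulated genes, 5 were lower and 0 higher (median -0.26), with Rsad2 at 64 and 36 UMIs and Isg15 at 46 and 27. Of those 5, only Zbp1 was still called without the 10 richest cells. Without doublet-like cells, 3 of 26 interferon-stimulated genes were lower and 1 higher (median -0.10).

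The MHC class II list was called higher at 7 of 10 genes in the mature neutrophil gate (median 1.04). Cd74 went from 491 to 1248 CPM, H2-Aa from 198 to 466 CPM and H2-Eb1 from 110 to 298 CPM. The conventional dendritic marker sum in this gate was 1037 CPM in the young and 2475 CPM in the aged library. That sum includes Cd74, H2-Aa, H2-Ab1 and H2-Eb1, so it is no separate sign of dendritic cells. The same markers help set which cells are doublet-like, and the source of these transcripts was not tested. Without doublet-like cells 3 of 7 genes were called (median 0.37) and H2-Aa had 22 and 23 UMIs (-0.01), while Cd74 stayed higher (1.37). After stroke the ratios in this gate were 1.28 for Cd74, 1.42 for H2-Aa and 1.8 for H2-Eb1.

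Monocytes had 42 of 6212 genes called (0.676%), 27 higher (0.435%) and 15 lower (0.241%). Chil3, a chitinase-like secreted protein, went from 450 to 711 CPM (0.66, 0.61 to 0.71), Wfdc17 from 194 to 306 CPM (0.66), Ifitm1 from 60.7 to 98.1 CPM (0.69) and the glycolytic enzyme gene Eno1 from 111 to 170.5 CPM (0.62). Chil3 is a marker of specific-granule-stage neutrophils, whose marker sum in monocytes was 2024 and 2155 CPM. That sum includes Chil3, so it is no separate sign of neutrophil transcripts. Lower genes were Fos, an immediate early factor (53.6 to 24.8 CPM, -1.11), Ifi27l2a (402 to 265 CPM, -0.60), Tfrc (85.2 to 52.2 CPM, -0.71) and the progenitor marker Cd34 (99.8 to 66.3 CPM, -0.59). After stroke Fos (-1.08) and Ifi27l2a (-1.01) were again lower and Ifitm1 (1.24) again higher, whereas Chil3 was lower in aged monocytes (4821 to 2085 CPM, -1.21). The ratio of Wfdc17 after stroke was -0.29.

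Conventional dendritic cells had 303 of 6083 genes called (4.98%), 169 higher (2.78%) and 134 lower (2.2%), from 116 and 149 cells. Immediate early genes were lower at 4 of 14 members and higher at 0 (median -0.11), namely Jun (58 and 28 UMIs, -1.76), Fos (26 and 16), Ier2 (64 and 53) and Zfp36 (58 and 59). The call of Zfp36 did not hold without the 10 richest cells. Of 29 G2 and M phase genes 5 were higher and 0 lower (median 0.33), among them Anln, a scaffold of dividing cells, with 16 and 65 UMIs (1.31). Aspm, a spindle protein outside the list, had 27 and 86 UMIs (0.96). Igkc reached 1072 UMIs in aged against 85 in young dendritic cells, with 91.0% and 82.4% of them in 10 cells.

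Erythroid cells had 61 of 5960 genes called (1.02%), 18 higher (0.302%) and 43 lower (0.721%). The globin genes Hba-a1 (352 and 45 UMIs), Hbb-bs (346 and 49) and Hbb-bt (322 and 40) were lower in the aged library, with ratios between -2.89 and -2.70. They were lower after stroke too (-4.07 to -2.51). From 81.5% to 87.3% of the young UMIs of these genes in the gate came from 10 cells. All globin transcripts summed to 188 CPM (young) and 27.0 CPM (aged) in the gate, and to 76.5 and 9.74 CPM over all cells. The gate held 5639765 of the 72743805 young UMIs, so most young globin UMIs lay outside it. The globin genes share 40.7% to 89.9% of their 3′ words with near-identical copies, so the split among them is uncertain. Tfrc, which imports iron for heme, went from 164 to 100.5 CPM (-0.71), Cd63, a lysosomal tetraspanin, from 69.7 to 111 CPM (0.68), and Aldh1a1 from 61.5 to 95.5 CPM (0.63).

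The 2 smallest gates gave many calls from few cells. Basophil and mast cells (94 and 101 cells) had 331 of 6208 genes called (5.33%), 156 higher (2.51%) and 175 lower (2.82%). Megakaryocytes had 320 of 6442 called (4.97%), 181 higher (2.81%) and 139 lower (2.16%), of which 169 and 39 held without the 10 richest cells. In basophil and mast cells 7 of 29 G2 and M phase genes were lower and 0 higher (median -0.44). Irf8, a monocyte and dendritic factor, had 7 and 58 UMIs there (2.78). The 10 richest cells held 87.9% of its aged UMIs and, by definition with so few, all 7 young ones. The ratio for Pf4 in basophil and mast cells, -5.69, came in full from 10 cells of each library. In megakaryocytes 4 of 28 G2 and M phase genes were higher and 0 lower (median 0.21), and S100a6 went from 92.4 to 224 CPM (1.28).

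A small set of genes moved the same way in many lineages. Among genes above the floor in a lineage, 949 were called higher and 991 lower in at least 1 of the 11 gates, 31 and 23 in at least 3, and 6 and 7 in at least 5. Rsrp1 was called higher in 11 of 11 gates, with ratios from 0.82 in stem-like cells to 1.38 in megakaryocytes. Jun, a subunit of the AP-1 factor, was called lower in 9 of the 10 gates where it was above the floor and had a ratio below 0 in all 10, from -1.76 to -0.24. The mitochondrial ribosomal RNA mt-Rnr2 was lower in 9 of 11 gates and mt-Rnr1 in 8 of 11, all with ratios below 0. AY036118, a noncoding RNA used here as a sign of RNA quality, was lower in 6 of 11 gates (-1.11 to 0.04). The list of RNA quality and nuclear transcripts that holds it had a median below 0 in all cells (-0.25, with 0 of 5 genes above 0) and in each of the 11 gates (-0.46 to -0.11); its part in the ratios of Jun and of the mitochondrial ribosomal RNAs was not tested. Banp, a nuclear matrix protein, was lower in 6 of 8 gates (chosen for mention after its values were seen), and Ifi27l2a was lower in 4 of 7 and higher in 1.

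**Figure D4:**
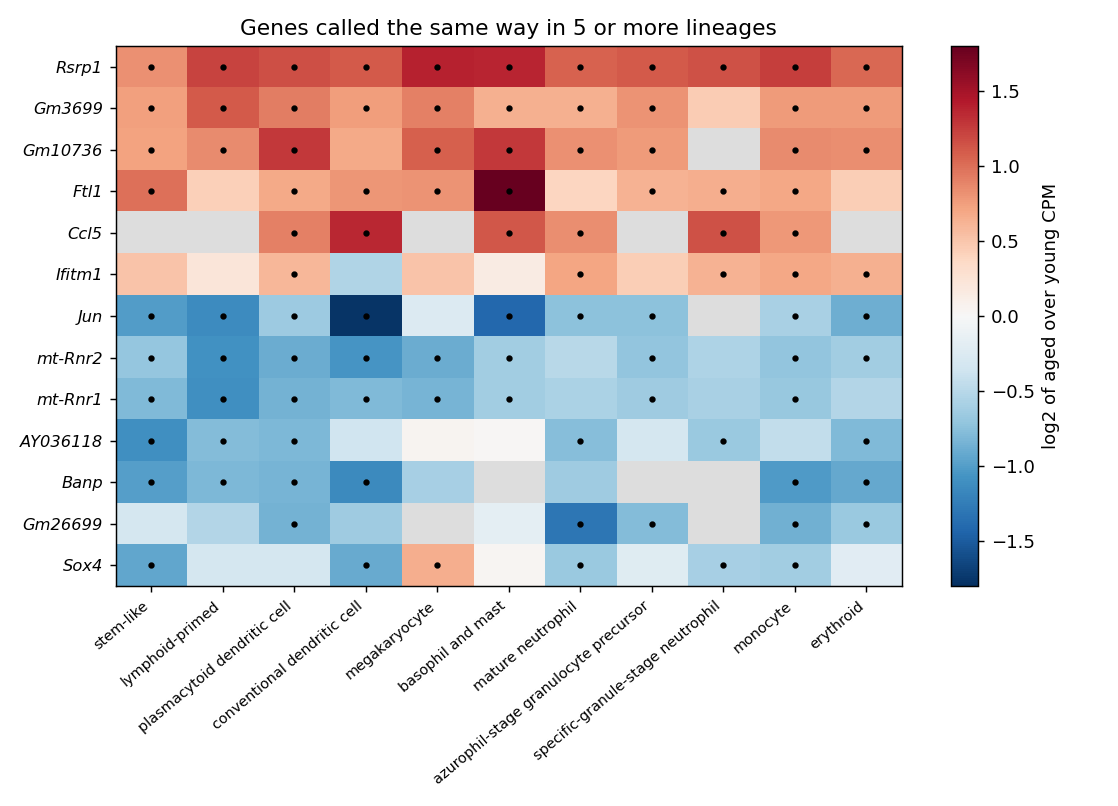
Log2 ratio of the aged over the young level (colour) for the 13 genes called the same way in at least 5 of 11 lineages; dots mark calls and grey marks levels under the floor. Rsrp1 is red with a dot in all 11 columns, and Jun and mt-Rnr2 are blue wherever shown.

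Several of the genes higher in many lineages share their 3′ sequence with copies elsewhere in the genome. Gm3699 (10 of 11 gates) and Gm10736 (9 of 10) are annotated as processed pseudogenes, and 100% of their 3′ words (short runs of letters near the transcript's end) occur in other genes, which are Rpl41 and its copies. Ftl1, the ferritin light chain (8 of 11 gates), shares 88.9% of its words, Ppia, a cyclophilin, 55.3%, and Gm2830, which leads the stem-like gate, 48.5%, with Rps24. Rpl41 itself had a ratio of -0.07 over all cells and Rps24 one of -0.15. Levels of these genes also differed widely between the pairs of libraries: Ftl1 stood at 56.2 and 87.9 CPM at steady state and at 1090 and 1091 CPM after stroke, and Gm3699 at 73.0 and 127 CPM against 1358 and 1846 CPM. The treatment of reads that match several genes is not stated in the labels. The steady-state and stroke libraries may have been counted in different ways, which touches each value set beside one after stroke. Its part in these ratios was not tested. Rsrp1 (chromosome 4, 134923592 to 134927671) and Jun (chromosome 4, 95049034 to 95052222) share 0% of their 3′ words with other genes. Reads of Jun and of Junos, which overlaps it, may not be told apart.

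Ccl5 was called higher in 6 of 6 gates above the floor, but from few cells. It is a chemokine of T and NK cells, whose gate held 63 young and 48 aged cells, and in conventional dendritic and plasmacytoid cells 100% of its UMIs came from 10 cells.

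Of the 33 genes called over all cells at steady state, 28 were above the floor after stroke, where 4.53% of all genes were called; 11 were called the same way there and 1 the opposite way, and 24 had the same sign. Those called both times included Pf4 (1.22 after stroke), Ifitm1 (0.78), H2-Eb1 (0.64), Jun (-0.62) and Ifi27l2a (129.5 to 40.7 CPM, -1.67). Rsrp1 was not among them: it stood at 207.5 and 178.5 CPM after stroke, a ratio of -0.22. For mt-Rnr2 and mt-Rnr1 the ratios after stroke were -0.13 and -0.11. Igkc was the gene called the opposite way (-0.80). The young and aged libraries after stroke come from other samples than those at steady state, again 1 a side, and the difference between the 2 ratios was not tested.

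**Figure D5:**
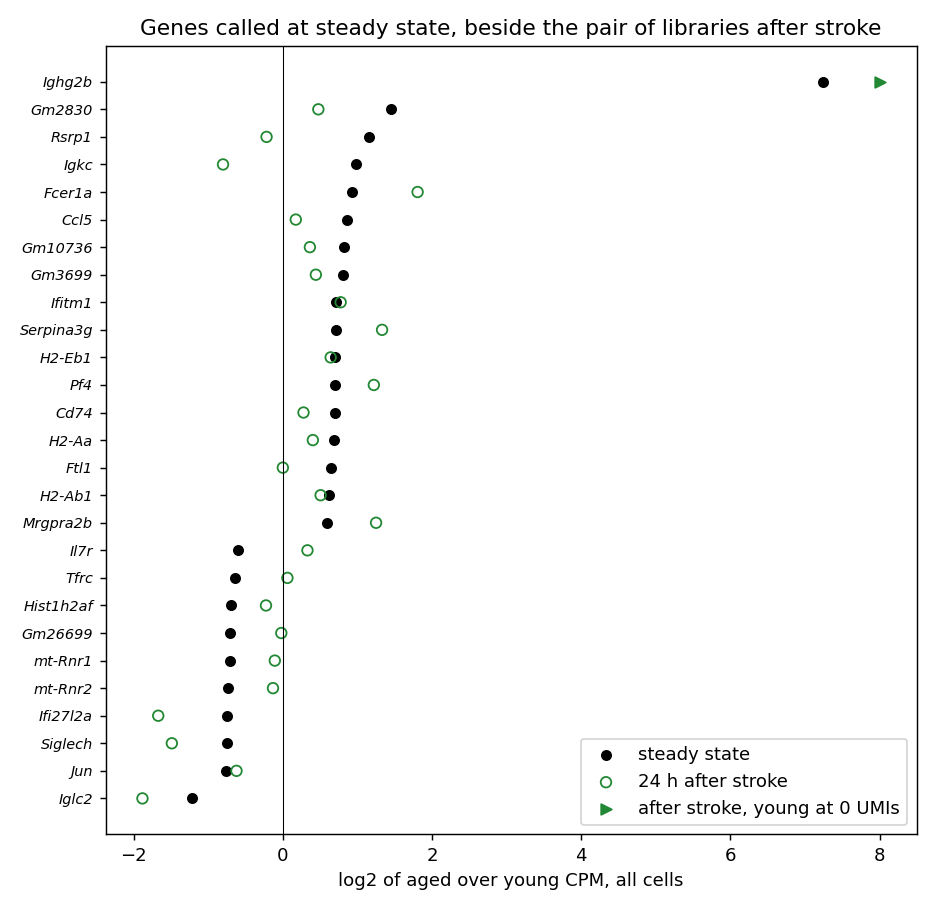
Log2 ratio of aged over young CPM over all cells for 27 of the 28 genes called at steady state (filled points) that were above the floor 24 h after stroke (open points; the triangle marks Ighg2b, which had 0 young UMIs there). Pf4, Ifi27l2a and Jun keep their side in both pairs, while Rsrp1 and Igkc cross 0.

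Many gene groups hardly differed at steady state. None of 44 cytosolic ribosomal protein genes and none of 37 oxidative phosphorylation genes was called over all cells (medians 0.01 and 0.03). The same held for 26 S phase genes (median -0.00), 28 G2 and M phase genes (-0.09), 15 MHC class I genes (0.02), 13 glycolysis genes (0.17), 10 senescence and DNA damage genes (0.07) and 14 myeloid transcription factors (-0.14). Of 12 interferon-stimulated genes only Ifi27l2a was called, lower (list median -0.08), and of 14 immediate early genes only Jun, lower (median -0.17). Transcripts of the Y chromosome were present in both libraries and none was called: Ddx3y stood at 50.7 and 44.3 CPM and Eif2s3y at 56.8 and 65.5 CPM. Xist, which female cells transcribe, had 7 UMIs in the young and 13 in the aged library.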

How the data were processed

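The deposited table holds, per its values and header, whole-number UMI counts per gene and cell, which the authors made from the reads; the submitters' processing notes name Cell Ranger 3.0.2, STAR 2.5.3a, Subread, featureCounts 1.6.4, UMI-tools and the build GRCm38 (mm10), without roles. Library names come from the second row of the table and 0 columns were left without a sample. It covers 23016 genes and 28055 barcodes.

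Counts were summed over all cells and over each marker gate and scaled to CPM without pseudocount. A marker score is the mean, over a class's markers, of the log count per cell divided by its 95th percentile and limited to 1; the scoring rule was set after seeing the data. Of 148 marker genes, 143 are in the table. A gate's own markers are left out of its results. Ratios carry exact (Clopper-Pearson) 95% counting intervals; there are no replicates, hence no model and no p-value. Doublets were not removed; cells passing the gates of unrelated classes were left out as an alternative. The members, marker lists and 27 gene lists were chosen with earlier results of these data known.

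Genes were named from the lists and markers, and by size: over all cells the 12 highest and 12 lowest calls of at least 50 CPM, and, in lineages of at least 100 cells in each library, the 6 highest and 6 lowest calls of at least 50 CPM that held without the 10 richest cells. The scripts were tested on simulated data. Alternatives were median-of-ratios scaling, a fold of 2, no level floor, at least 1000 UMIs, at most 3% mitochondrial UMIs, equal weight per cell, leaving out the 10 richest cells or doublet-like cells, gates on thinned cells or of at least 4 markers, and a mean lineage make-up. The work used pandas 2.3.3, scipy 1.17.1, matplotlib 3.10.9 and numpy 2.4.6 under Python 3.11.15. Some genes that met these rules are not reported here.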

Additional observations from a re-analysis of the deposited data

Results flagged for a closer look

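Some genes had opposite ratios of aged over young levels in 2 settings, each outside its counting interval; with 1 library a side the difference was not tested in any of them. Igkc had a log2 ratio of 0.99 over all cells at steady state and -0.80 after stroke. Wfdc17 in mature neutrophils went from 1.77 at steady state to -0.98 after stroke, and Chil3 in monocytes from 0.66 to -1.21.

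Others differed in sign between lineages at steady state. H2-Eb1 was 1.43 in mature neutrophils and -0.65 in plasmacytoid dendritic cells. Without doublet-like cells, 0 of 8 MHC class II genes above the floor were lower in plasmacytoid dendritic cells (median 0.10). In mature neutrophils that list's median was 1.04 with doublet-like cells and 0.37 without them. Id2 was 1.24 in stem-like cells and -0.93 in mature neutrophils. For Wfdc17 the ratio was 1.77 in mature neutrophils and -1.03 in stem-like cells. S100a6 was 1.28 in megakaryocytes and -0.70 in erythroid cells, and Sox4 0.65 in megakaryocytes and -0.93 in stem-like cells.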

How the results depend on the processing

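No paired analysis was possible because each group has 1 library. Of 1050 recomputed values of 112 gene and lineage pairs, 952 moved by less than the counting interval, 97 moved further and 1 turned: H2-Aa in mature neutrophils, -0.0097 without doublet-like cells. Dropping the level floor cannot change a ratio, so its 112 unmoved values were fixed in advance. The limit of 1000 UMIs also left all 112 values unmoved. Genes named within lineages were chosen as still called without the 10 richest cells, so that setting is no separate check of them. Over all cells, the 19 genes called higher became 3 with a fold of 2, 982 with no level floor and 9 under the mean make-up; the 14 called lower became 2 with a fold of 2 and 493 with no floor. With a fold of 2 the genes called numbered 180 in stem-like cells, 13 in lymphoid-primed progenitors, 2 at the azurophil stage, 4 at the specific-granule stage, 78 in mature neutrophils, 7 in monocytes, 17 in plasmacytoid and 123 in conventional dendritic cells, 137 in basophil and mast cells, 6 in erythroid cells and 152 in megakaryocytes. With no floor they numbered 1137 in stem-like cells, 492 in lymphoid-primed progenitors, 664 and 527 at the azurophil and specific-granule stages, 544 in mature neutrophils, 584 in monocytes, 484 and 480 in plasmacytoid and conventional dendritic cells, and 516 in erythroid cells. Without the 10 cells richest in each gene they were 1014 in stem-like cells, 198 in lymphoid-primed progenitors, 454 in mature neutrophils, 408 and 678 in plasmacytoid and conventional dendritic cells, 581 in basophil and mast cells and 1016 in megakaryocytes. Gates on thinned cells gave 192 in lymphoid-primed progenitors, 78 in monocytes and 106 in erythroid cells. The share ratio of mature neutrophils was 1.06 without doublet-like cells. The MHC class II median over all cells was 0.31 with no floor, 0.45 with equal weight per cell and 0.21 under the mean make-up; in mature neutrophils it was 0.37 without doublet-like cells and 1.5 without the 10 richest cells. The megakaryocyte list's median over all cells was 0.73 with no floor and 0.10 under the mean make-up. The G2 and M phase median in stem-like cells turned to 0.41 with gates on thinned cells. The cause was not tested, except that fold and floor change which genes can be called, and that leaving out 10 cells takes a larger share of the library with fewer cells in a gate. Gates of under 100 cells limit what counting can show.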
